A study of Homo sapiens with 4 samples.

Results

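The smooth muscle contractile genes were examined in GIST-T1 cells, a human line established from a gastrointestinal stromal tumor (GIST). The set consists of 10 genes, ACTA2, ACTG2, MYH11, CNN1, TAGLN, DES, MYLK, SMTN, CALD1 and MYOCD, and its members are all the probes that carry exactly one of these names, 16 of the 50599 probes (10 of 36337 probe names) on the array. The cells received by electroporation 100 pmol of either a miR-34a mimic (a duplex RNA made to stand in for the mature microRNA) or mirVana miRNA mimic Negative Control #1, with 3000000 cells in each transfection. RNA was taken 48 h later from otherwise untreated cells and hybridized to one-color Agilent arrays, 2 for each condition. No untransfected cells and no smooth muscle cells were analysed here, and the conditions were compared in a single cell line. The labels do not say whether the 2 replicates of a condition were separate transfections, so the p-values measure only the spread between these arrays.

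In smooth muscle, force comes from actin filaments that slide along myosin after calcium and calmodulin switch on the kinase that phosphorylates the myosin light chain. The genes for this machinery are switched on together by serum response factor (SRF), which binds a DNA motif named the CArG box, and by its smooth muscle coactivator myocardin. The interstitial cells of Cajal, the pacemaker cells of the gut from which GISTs are thought to arise, share a mesenchymal origin with the smooth muscle cells around them, and GISTs can carry some smooth muscle proteins.

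The main mature strand of miR-34a is shown first, since its seed sets what it pairs with. The sequence of the mimic itself was not given in the sources used here. Capitals mark the seed, bases 2 to 8 from the 5′ end (RefSeq, GRCh38.p14, chromosome 1 from 9151735 to 9151756, minus strand).
hsa-miR-34a-5p: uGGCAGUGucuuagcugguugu
The DNA match of this seed, CACTGCC, and ACTGCCA, which pairs with bases 2 to 7 and ends in an A, were searched for on the strand printed in the array files. Neither stood in any of the 16 probes of the contractile genes, and one or the other stood in 0.7% of all 50599 probes. A probe is a 60-base piece of a transcript, so this says nothing about the rest of the mRNA.

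The probes decide which part and which form of a transcript was measured, and those that lie across an exon junction or in the coding sequence are shown for the genes on which the results turn. In the MYH11 probe the capitals mark the 17 bases that it shares with the other MYH11 probe.
ACTA2 A_23_P150053: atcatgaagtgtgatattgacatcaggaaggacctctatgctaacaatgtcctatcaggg
TAGLN A_23_P87013: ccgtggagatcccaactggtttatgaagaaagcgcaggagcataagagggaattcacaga
MYH11 A_23_P206920: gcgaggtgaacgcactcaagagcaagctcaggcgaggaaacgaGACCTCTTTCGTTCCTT
MYLK A_23_P143817: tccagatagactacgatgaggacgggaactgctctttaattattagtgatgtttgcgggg
MYLK A_21_P0012447: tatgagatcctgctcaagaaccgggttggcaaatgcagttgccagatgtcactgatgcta
In the array's annotation (hg19) the ACTA2 probe lies on chromosome 10 from 90697899 to 90697958 on the minus strand. The TAGLN probe extends over 390 bases of chromosome 11, from 117074574 to 117074963 on the plus strand, the MYH11 probe over 10845 bases of chromosome 16, from 15797952 to 15808796 on the minus strand, and the last MYLK probe over 6304 bases of chromosome 3, from 123420314 to 123426617 on the minus strand, so each of these 3 crosses at least 1 intron. MYLK A_23_P143817 lies from 123333074 to 123333133, 87180 bases away from that MYLK probe and nearer the 3′ end of the gene. The longest run that any of the 16 probes had in common with a probe of another gene name, on either strand, was 17 bases (for DES and for MYLK A_23_P143817). Actin genes resemble each other closely in their coding sequence, and binding of related transcripts to these probes was not tested.

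CArG boxes were looked up in the RefSeq promoter windows (GRCh38.p14, 250 bases before to 50 bases after a gene start) because they are the elements through which SRF acts on this gene family. The form searched for was CC, then 6 bases that are each A or T, then GG. The motif is its own reverse complement in form, so 1 search covers both strands. Windows were given for 6 of the 10 genes, 13 windows in all, of which 3 held a box (23.1%), against 453 of 34943 windows over all genes (1.3%). None was given for MYH11, TAGLN, DES and MYOCD. The boxes are in capitals, with 10 bases on each side. MYLK has separate starts, and a window was given for only 1 of them. Which transcript begins there was not checked, so the MYLK box is not assigned to a kinase transcript.
ACTG2, 110 bases before the gene start: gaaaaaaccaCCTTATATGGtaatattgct
ACTG2, 73 bases before the gene start: cgtcagctggCCTTTTTAGGgactttgttt
MYLK, 94 bases before the gene start: ataaaccatcCCTTTTATGGgagttgaagc
SMTN, 44 bases before 1 of 4 gene starts: cggggccgggCCATATAAGGaaaagctagg
The ACTG2 boxes lie on chromosome 2 from 73892898 to 73892907 and from 73892935 to 73892944 (plus strand), the MYLK box on chromosome 3 from 123620633 to 123620642 (minus strand), and the SMTN box on chromosome 22 from 31084952 to 31084961 (plus strand). No such box stood in the windows of ACTA2, CNN1 or CALD1, which says only that these letters are not in those windows. Boxes that depart from this form were not searched for.

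Of the 10 genes, 7 were detected in GIST-T1 cells and 3 were not measured above background in either condition as a whole. Detected means that the scanner software flagged a probe as well above background, and 9 of the 16 probes (7 genes) had this flag on all 4 arrays. ACTA2, ACTG2, TAGLN, DES, MYLK, SMTN and CALD1 each had at least 1 such probe. MYH11, the heavy chain of smooth muscle myosin, and MYOCD, the gene of myocardin, had no flag on any array, and CNN1, which encodes the actin-binding protein calponin, had it on 1 array. The cell line's own markers were present, since the receptor gene KIT and the other 6 GIST and interstitial Cajal cell markers examined (ANO1, ETV1, PRKCQ, GPR20, PDGFRA and CD34) each had a probe with the flag on all 4 arrays. The flag was set for 41.8% to 45.2% of all probes, and no spot was saturated. Because probes bind with different strength, their levels are given next without ranking one gene against another.

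**Figure D1:**
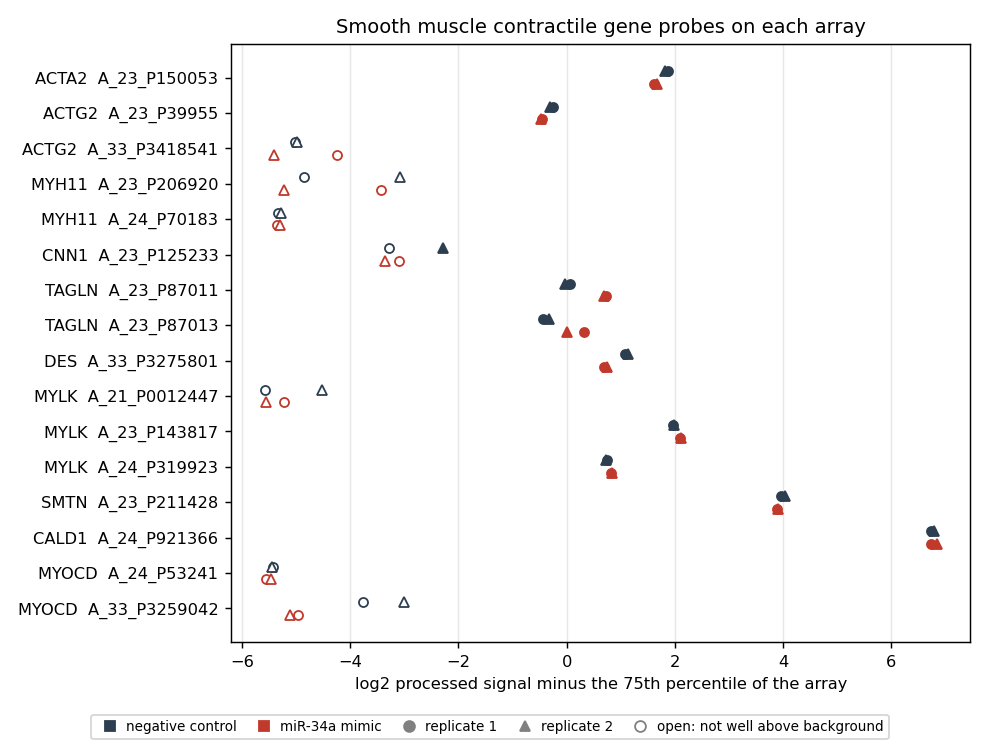
Level of each of the 16 probes on each array, as the log2 processed signal relative to the 75th percentile of that array (x axis), with the negative control in dark blue, the miR-34a mimic in red and open symbols where the detection flag was missing. Of the 9 probes with filled symbols throughout, replicates lie apart by more than 0.3 only in the mimic arrays of TAGLN A_23_P87013 (0.328), whereas the probes of MYH11, MYOCD and CNN1 lie at or below -2.28 on all 4 arrays.

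Levels and differences are on the log2 scale throughout. A level is the processed signal relative to the 75th percentile of its array, and a difference is miR-34a mimic minus negative control. The 9 detected probes were tested with limma across the 21474 probes that had the flag on both arrays of the mimic, of the control or of each, with Benjamini-Hochberg adjustment. None of the 9 had an adjusted p under 0.05, as was true of every probe on the array (0%), while 5 of the 9 had an unadjusted p under 0.05 by limma, against 24.3% of all tested probes. On 1 of the 9 probes the miR-34a mimic was higher by more than 1.5-fold (all tested probes, 2.11%), and on 0 it was lower by more than 1.5-fold (4.8%). The arrays of the 2 conditions did not overlap on 8 of the 9, against 60.5% of all tested probes (30.1% with both mimic arrays below and 30.4% with both above). The median difference of the 9 probes was 0.03, and that of all tested probes was -0.0077. An exact permutation test on 2 against 2 arrays cannot give a p below 0.333.

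Among the 9 tested probes, those of TAGLN had the largest differences, and both were higher with the miR-34a mimic. The gene encodes transgelin (SM22), an actin-binding protein of smooth muscle that is also made by fibroblasts. On probe A_23_P87011 (accession NM_001001522, chromosome 11 from 117075155 to 117075214) the level was 0.06 and -0.03 on the negative control arrays and 0.73 and 0.69 on the miR-34a mimic arrays. In RNA from whole cultures, more RNA per cell and more cells that express a gene cannot be told apart. Both mimic arrays lay above both control arrays, and the replicates differed by 0.0923 (control) and 0.0361 (mimic). The mean was 0.02 ± 0.0653 (SD, n = 2) in the control and 0.71 ± 0.0255 (SD, n = 2) with the mimic. The difference was 0.70 (standard error 0.0635, 95% confidence interval 0.51 to 0.88, adjusted p = 0.0948 by limma), or 1.62-fold. This probe passed the threshold with 2 other settings, a variance trend in limma (adjusted p = 0.0157) and normexp background correction (adjusted p = 0.0253 by limma, difference 0.56).

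The second TAGLN probe, A_23_P87013, which crosses an intron and lies 191 bases away, gave -0.43 and -0.33 on the control arrays and 0.33 and -0.0027 on the mimic arrays. Here too the mimic arrays lay above the control arrays, but they differed from each other by 0.328. The difference was 0.54 (standard error 0.139, 95% confidence interval 0.14 to 0.95, adjusted p = 0.151 by limma), or 1.46-fold. Left out in turn, the arrays moved the 2 probes between 0.65 and 0.74 and between 0.38 and 0.71. The lower end of the second range came without miR-34a mimic replicate 1.

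DES, which encodes desmin, the intermediate filament protein of muscle cells, was lower with the miR-34a mimic. Its single probe (A_33_P3275801, NM_001927, chromosome 2 from 220291400 to 220291459) gave 1.08 and 1.12 on the control arrays and 0.68 and 0.75 on the mimic arrays. The 2 conditions did not overlap, and the gap between replicates was 0.0392 in the control and 0.0659 with the mimic. The difference was -0.39 (standard error 0.0590, 95% confidence interval -0.56 to -0.22, adjusted p = 0.0994 by limma), 1.31-fold lower, so that the interval did not reach 1.5-fold. The difference ranged from -0.42 to -0.30 over the alternatives, and the probe passed the threshold with a variance trend in limma (adjusted p = 0.0346).

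The 2 smooth muscle actin genes were slightly lower with the miR-34a mimic. ACTA2, the alpha actin of vascular smooth muscle and of myofibroblasts, gave 1.88 and 1.82 on the control arrays and 1.62 and 1.67 on the mimic arrays (NM_001613). ACTG2, the gamma actin of gut smooth muscle, gave -0.26 and -0.30 on the control arrays and -0.46 and -0.47 on the mimic arrays with probe A_23_P39955 (NM_001615, chromosome 2 from 74146700 to 74146759). For both genes the conditions did not overlap. The difference was -0.20 for ACTA2 (standard error 0.0587, adjusted p = 0.171 by limma), 1.15-fold, and -0.18 for ACTG2 (standard error 0.0542, adjusted p = 0.179 by limma), 1.13-fold. The 95% confidence intervals, -0.37 to -0.03 and -0.34 to -0.02, contain only decreases smaller than 1.5-fold. With the arrays left out in turn, the difference stayed between -0.23 and -0.18 for ACTA2 and between -0.20 and -0.16 for ACTG2.

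A second ACTG2 probe, A_33_P3418541, is annotated to a cDNA clone (AK310215) and lies 16399 bases upstream of the other one. No array detected it, with levels of -5.03 and -4.98 on the control arrays and -4.24 and -5.40 on the mimic arrays. The spot was 1.22 and 1.28 times as bright as its local background on the control arrays, against 4.14 and 3.85 times for the detected probe. The ACTG2 signal thus rests on the downstream probe.

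MYLK, the gene of the kinase that phosphorylates the myosin light chain, was detected by 2 of its 3 probes. Probe A_23_P143817 (NM_053025) gave 1.95 and 1.98 on the control arrays and 2.09 and 2.12 on the mimic arrays, and probe A_24_P319923 (chromosome 3 from 123331161 to 123331220), 1853 bases from it, gave 0.75 and 0.73 against 0.83 and 0.85. On both probes the mimic arrays lay above the control arrays by little. The differences were 0.13 (95% confidence interval -0.02 to 0.29, adjusted p = 0.244 by limma) and 0.10 (95% confidence interval -0.06 to 0.25, adjusted p = 0.333 by limma), so that a difference above 1.5-fold lay outside both intervals.

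The third MYLK probe, A_21_P0012447, crosses an intron and lies upstream of the other 2, 87180 and 89093 bases away. MYLK gives a long kinase, a shorter smooth muscle kinase and telokin, a small protein encoded at the 3′ end, from separate starts in 1 gene. Probe A_21_P0012447 had the flag on no array (-5.58 and -4.53 on the control arrays, -5.22 and -5.55 on the mimic arrays), whereas the 2 probes nearer the 3′ end had it. Whether those 2 probes measured a kinase transcript or telokin was not tested. The array's annotation lists NM_053025, NM_053026, NM_053027 and NM_053028 for all 3 probes, and the share of each transcript form was not measured.

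SMTN and CALD1 had differences near 0. SMTN encodes smoothelin, a cytoskeletal protein of contractile smooth muscle. Its probe (A_23_P211428, NM_134269, chromosome 22 from 31500343 to 31500402) gave 3.96 and 4.03 on the control arrays and 3.88 and 3.91 on the mimic arrays. The mimic arrays lay below the control arrays, by a difference of -0.10 (95% confidence interval -0.27 to 0.07, adjusted p = 0.372 by limma). Without negative control replicate 2 it was -0.06.

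CALD1 encodes caldesmon, which binds actin and restrains myosin, and is made in a longer smooth muscle form and a shorter form found in most other cells. The probe (A_24_P921366, NM_033138, chromosome 7 from 134655197 to 134655256) is annotated to 4 RefSeq transcripts and does not tell these forms apart. Its levels were 6.73 and 6.78 on the control arrays and 6.73 and 6.84 on the mimic arrays, which overlapped. The spot was 458 and 490 times as bright as its local background on the control arrays. The difference was 0.03 (95% confidence interval -0.17 to 0.22, adjusted p = 0.805 by limma), and its sign was not stable, at -0.02 without miR-34a mimic replicate 2.

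**Figure D2:**
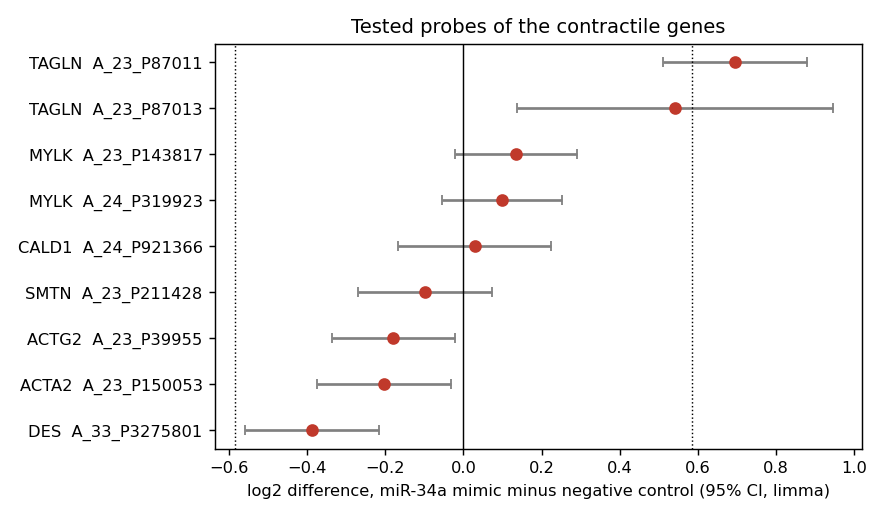
Log2 difference, miR-34a mimic minus negative control (x axis), for the 9 tested probes, with 95% confidence intervals from limma, and dotted lines at 1.5-fold in each direction. Both TAGLN probes lie to the right of 0, DES, ACTA2 and ACTG2 to the left, and the intervals of MYLK, CALD1 and SMTN include 0.

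MYH11, CNN1 and MYOCD were the 3 genes without a tested probe. The probe that crosses an intron of MYH11 is annotated to NM_001040114 and NM_002474, and it gave -4.85 and -3.08 on the control arrays and -3.44 and -5.22 on the mimic arrays. The other MYH11 probe (A_24_P70183, chromosome 16 from 15797909 to 15797968), annotated to all 4 transcripts, gave -5.33 and -5.27 against -5.36 and -5.30. The lowest signal of any probe well above background was between -3.30 and -3.20 on the 4 arrays, so most of these values lay under the range that the arrays could detect.

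MYOCD was measured by probes A_24_P53241 (NM_153604, chromosome 17 from 12661448 to 12661507) and A_33_P3259042 (NM_001146313, chromosome 17 from 12659814 to 12659873). The former gave -5.44 and -5.45 on the control arrays and -5.55 and -5.46 on the mimic arrays. The latter gave -3.76 and -3.01 on the control arrays and -4.96 and -5.11 on the mimic arrays, which did not overlap, but no array had it well above background and no fold is given. CNN1 (A_23_P125233, NM_001299, chromosome 19 from 11661005 to 11661064) gave -3.28 and -2.28 on the control arrays and -3.09 and -3.35 on the mimic arrays, and only negative control replicate 2 detected it. With each mimic array taken at the higher of its detection floor and its own signal, the control mean lay 1.29-fold above. This is not a strict bound, since it rests on that 1 array, and without it the sign turned, the signal being higher with the mimic by 0.06.

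The differences can be set beside the CArG boxes. With a box of the searched form in a window, ACTG2 had a difference of -0.18, MYLK 0.13 and 0.10 and SMTN -0.10. The SMTN box stood in only 1 of the windows of that gene. Without one, ACTA2 had -0.20 and CALD1 0.03. These are values side by side, with no test. Whether the MYLK window, or the SMTN window with the box, serves the transcripts measured by these probes was not tested. TAGLN (0.70 and 0.54) and DES (-0.39), which had the largest differences, had no window and could not be placed in either group.

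**Figure D3:**
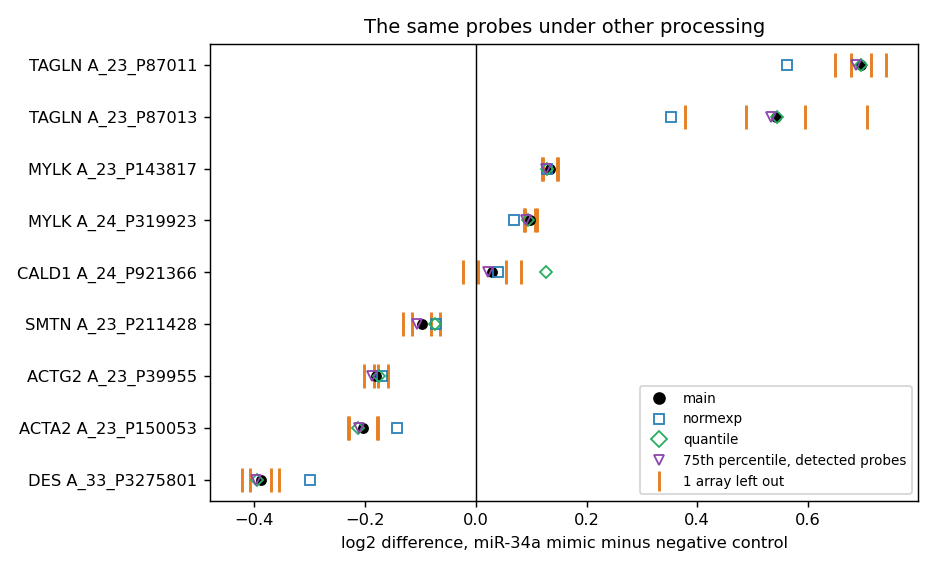
Log2 difference of the same 9 probes (x axis) as reported (black), with normexp background correction, with quantile normalization, with the 75th percentile over detected probes, and with each array left out in turn (orange bars). CALD1 alone crosses 0 among these settings, and under normexp the first TAGLN probe moves to 0.56 and DES to -0.30.

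The genes that work with the contractile set were taken from lists by role, with 1 probe per gene, the brightest tested one. By limma 0 genes of these lists had an adjusted p under 0.05, as on the whole array. Of 13 tested genes of the thin filament and of actin binding, 6 were lower and 7 higher, with a median of 0.05. ACTG1, the cytoplasmic gamma actin, was the only one past 1.5-fold, at -0.61 (adjusted p = 0.381 by limma). Its level was 7.08 and 6.997 on the control arrays and 6.93 and 5.93 on the mimic arrays, so that 1 mimic array stood apart, and without miR-34a mimic replicate 2 the difference was -0.11. TPM1, which encodes a tropomyosin of smooth muscle and other cells and was picked after its values were seen, was higher on each of its 3 probes, by 0.41, 0.52 and 0.36 (adjusted p = 0.193, 0.0983 and 0.135 by limma). LMOD1, the smooth muscle leiomodin, was detected on no array.

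Of 7 tested myosin chain genes, 2 were lower and 5 higher, between -0.12 and 0.20, with a median of 0.09. MYL9, the smooth muscle regulatory light chain, had no tested probe, while the nonmuscle heavy chain genes MYH9, MYH10 and MYH14 were tested. Of 12 genes for calmodulin, light chain kinases and phosphatase and their regulators, 6 were lower and 6 higher, with a median of -0.0052 and 0 past 1.5-fold. The median of all tested probes was -0.0077, so the second list lay close to it and the myosin chain list somewhat above it.

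Among the regulators, SRF itself gave -2.19 and -2.36 on the control arrays and -2.48 and -3.05 on the mimic arrays, a difference of -0.49 (standard error 0.227, adjusted p = 0.287 by limma) that was -0.21 without miR-34a mimic replicate 2 and -0.77 without miR-34a mimic replicate 1. The myocardin relatives MKL1 and MKL2, which respond to free actin, had differences of 0.06 and 0.05 on their brightest probes. A second, dimmer MKL1 probe, also detected on all 4 arrays, had a difference of 0.37 (adjusted p = 0.225 by limma). KLF4, a zinc finger factor known to repress smooth muscle genes, gave -2.07 and -2.18 on the control arrays and -2.82 and -2.75 on the mimic arrays, 1.58-fold lower (difference -0.66, adjusted p = 0.0948 by limma). The lowest signal well above background was -3.30 and -3.21 on the mimic arrays. SRF and KLF4 were thus dim there, and SRF lay close to this floor on miR-34a mimic replicate 2. The 11 tested regulators had a median of -0.02, with 6 lower and 5 higher.

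Of 8 tested SRF targets that respond directly to growth factors or to actin, 7 had an unadjusted p under 0.05 by limma (all tested probes, 24.3%), 5 of them lower and 2 higher. EGR1, a factor induced by growth factor signaling, was 1.68-fold lower (difference -0.75, adjusted p = 0.0948 by limma), with levels of 5.04 and 4.96 on the control arrays and 4.18 and 4.32 on the mimic arrays. JUNB, a subunit of AP-1, was 1.54-fold lower (difference -0.63, adjusted p = 0.0954 by limma). CTGF, a secreted matrix protein, was higher, at 0.02 and 0.12 on the control arrays against 0.65 and 0.82 on the mimic arrays, 1.58-fold (difference 0.66, adjusted p = 0.0954 by limma). Less than 1.5-fold remained for JUNB without negative control replicate 1 (-0.56) or miR-34a mimic replicate 1 (-0.57), and for CTGF without miR-34a mimic replicate 2 (0.58). The list thus held genes on both sides, and its median was -0.33.

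Of 8 tested genes of intermediate filaments and dense bodies, 3 were lower and 5 higher, with a median of 0.13. Of 9 tested channels and receptors of smooth muscle, 6 were lower and 3 higher, with a median of -0.11. ADRA1A, the alpha-1A adrenergic receptor, was 1.53-fold higher (difference 0.61, adjusted p = 0.104 by limma) with 0.30 and 0.27 on the control arrays and 0.78 and 1.01 on the mimic arrays. Without miR-34a mimic replicate 2 the difference was 0.497, less than 1.5-fold. Its other 2 probes had no test.

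**Figure D4:**
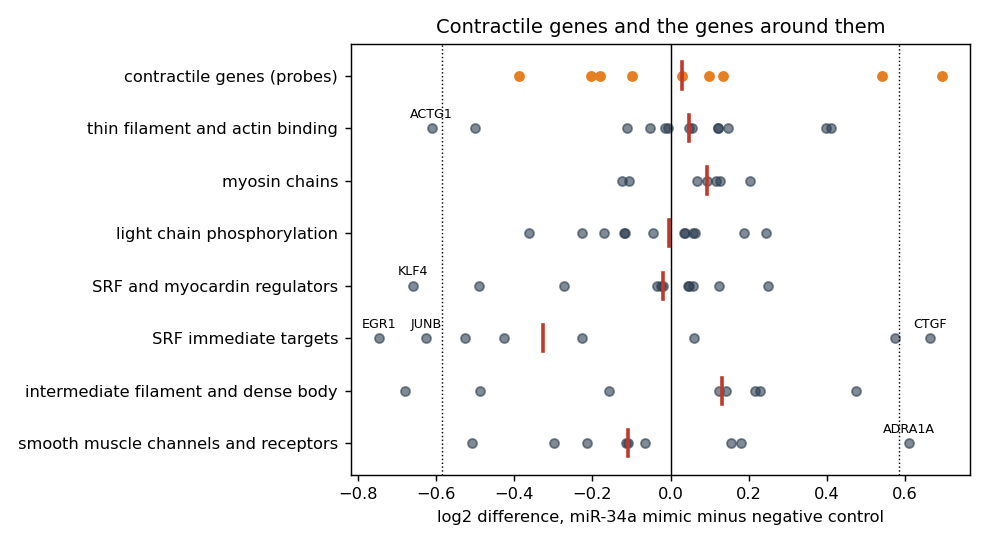
Log2 difference (x axis) of the 9 contractile gene probes (orange) and of the brightest tested probe of each gene in 7 lists (dark points), with the median of each row as a red bar and dotted lines at 1.5-fold. The medians lie between -0.33 and 0.13, and each named point lies past 1.5-fold and was detected on all 4 arrays.

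Genes of the other muscle lineages and of other cell types give the setting in which these values stand. Of 18 skeletal and cardiac muscle genes 4 were tested (2 lower, 2 higher, median -0.0047). NKX2-5 and GATA4, factors of the developing heart, were detected on all 4 arrays, and MYH3 and TNNI3 on 3, while MYOD1, MYOG, ACTA1, ACTC1, MYH6 and MYH7 were detected on no array. Of the 7 GIST and interstitial Cajal cell markers 6 were lower and 1 was higher, with a median of -0.23. KIT had levels of 7.46 and 7.46 on the control arrays and 6.74 and 6.79 on the mimic arrays (difference -0.70, adjusted p = 0.0948 by limma), and PDGFRA had 5.98 and 5.92 against 4.48 and 4.35 (difference -1.53, adjusted p = 0.0948 by limma). Tested were 6 of 8 fibroblast, 1 of 5 endothelial, 3 of 5 epithelial and 4 of 5 immune cell markers, and the fibroblast, epithelial and immune lists had medians of 0.06, -0.10 and -0.02. The endothelial marker was CDH5, which entered the test only through its flag on both control arrays and was detected on no mimic array. With the mimic arrays taken at the detection floor, it was at least 1.54-fold lower with the mimic. The filter favored this direction, so no p-value is given. TAGLN and ACTA2 are also made by fibroblasts, and the tested fibroblast markers lay between -0.38 and 0.29. The part of these markers in the results was not tested.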

How the data were processed

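Total RNA (100 ng) of each of 4 samples was labeled with Cy3 and hybridized to SurePrint G3 Human GE v2 arrays. Per the file headers, the authors extracted the deposited intensity of each spot with Agilent Feature Extraction 10.7.3.1, which subtracted background and removed spatial trends within arrays. The deposited value table held the same intensity values within 0.496%, and no column was left without a sample. All arrays shared 1 slide and 1 scan.

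Here, control spots and outlier spots were left out, and the log2 processed intensity was taken relative to the 75th percentile of its array. Differences were tested with limma 3.58.1 in R 4.3.3, on probes with the software's flag for a signal well above background on both arrays of the mimic, the control or each. Figures used matplotlib 3.10.9. Scripts were tested on simulated data. Of the 16 probes, 14 matched their symbol in RefSeq by accession. The number of arrays limits the precision.

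The members, lists and alternatives were chosen with earlier results of these data known. Named were all members, KIT and PDGFRA, and per list at most 4 genes past 1.5-fold on their brightest probe, detected on all 4 arrays, and 1 such gene is not reported here. Genes named only to show that they were or were not detected, and other values given in passing, were picked after the values were seen. No genes were ranked by likeness, because 4 arrays give no pattern to rank. Alternatives were normexp (offset 50), quantile normalization, the percentile over detected probes, no or a stricter filter on dim probes, the value table, a replicate block, an eBayes fit with a trend in the variance, the t-test that the methods name for continuous variables and each array left out.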

Additional observations from a re-analysis of the deposited data

How the results depend on the processing

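Over the alternatives that can move a difference, those of ACTA2, ACTG2, DES, MYLK, SMTN and TAGLN kept their direction, and CALD1 alone reversed, to -0.0228 without miR-34a mimic replicate 2. With a variance trend in eBayes, 2 of the 9 probes had an adjusted p under 0.05 by limma, TAGLN A_23_P87011 (adjusted p = 0.0157) and DES (adjusted p = 0.0346). With normexp 1 did, the same TAGLN probe (adjusted p = 0.0253), but its difference was then 0.56 and 0 probes were higher by more than 1.5-fold. Without a filter on dim probes, 16 probes were counted, 1 (MYOCD A_33_P3259042, detected on no array) was lower by more than 1.5-fold, and the median was -0.0812 against 0.03. Quantile normalization gave a median of 0.0935. When single arrays were dropped, the median (CALD1 itself) ranged from -0.0228 to 0.0809, the number of probes higher by more than 1.5-fold from 1 to 2 (2 without miR-34a mimic replicate 2 and 2 without negative control replicate 2), and the numbers lower by more than 1.5-fold and at an adjusted p under 0.05 by limma were 0. There, 1 condition has a single array, assumed to vary like the other condition. Over all 21474 probes, the trend gave 1591 with an adjusted p under 0.05 by limma and normexp 877, against 0, and past 1.5-fold quantile normalization gave 775 lower and 702 higher, normexp 185 and 68, no filter 6823 and 2070, and the stricter filter 512 and 285, against 1030 and 453. The cause of these changes was not tested.

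With the replicate number as a block, 0 of the 9 probes had an adjusted p under 0.05 by limma, and the median was 0.03. The labels give the replicates only a number, and deviations of same-numbered arrays correlated at -0.03 across probes. This does not settle whether same-numbered arrays were made together. The methods' t-test gave an unadjusted p under the usual threshold for ACTA2, ACTG2 (A_23_P39955), DES, TAGLN A_23_P87011 and both detected MYLK probes, and 0 probes after Benjamini-Hochberg adjustment. Beside the values named above, 113 single-probe values kept their direction and their side of the threshold. The direction could not change with the replicate block, the variance trend, the other filters or the t-test, which leave the difference itself as it was.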
